A study of Sus scrofa domesticus with 150 samples.

Results

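EGFR, the receptor for epidermal growth factor, and 6 of its ligands (HBEGF, AREG, EREG, TGFA, BTC and EGF) were followed by RNA sequencing through the healing of skin wounds in the pig. The genes were chosen by their symbols, and the 7 symbols matched 7 of the 30461 genes in the count table. Full-thickness circular wounds were cut in the back skin of 6 female domestic pigs (Yorkshire mix) and received only dressings (Telfa Clear under Tegaderm) before they were sampled. A topical antibiotic (Animax Ointment) was put on the biopsy sites, so that animals sampled again on later days had been given it at earlier sites. The animals were anesthetized on the sampling days. Each of the 72 wounds gave a pair of biopsies, 1 of the wound edge and 1 of the wound center, on a single day after wounding, and the skin excised from each animal at wounding (day 0, 6 samples) was the unwounded tissue, so that the series holds 150 samples in 29 states. There were 6 wounds a day, 2 from each of 3 animals, on the 10 sampling days up to day 13, and 3 wounds a day, 1 from each of 3 animals, on days 15, 16, 19 and 21. One set of 3 animals was sampled on days 1, 3, 5, 7, 11, 15 and 21 and the other set on days 2, 4, 6, 9, 13, 16 and 19, so that between neighbouring days of different sets the day and the animals cannot be told apart. The 2 wounds of an animal share that animal, and p-values here measure the spread between wounds.

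EGFR is a receptor tyrosine kinase of the cell surface. Its ligands are made as membrane-anchored precursors, are cut free by ADAM proteases, and drive receptor dimers that signal through the RAS and ERK pathway, which in turn switches on its own feedback inhibitors. In skin the receptor is best known from the keratinocytes of the basal epidermis and hair follicle, where its ligands promote the proliferation and migration with which the epidermis closes a wound. HBEGF, BTC and EREG can also bind ERBB4, while AREG, TGFA and EGF are regarded as ligands of EGFR itself.

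AREG (ENSSSCG00025016484), EREG (ENSSSCG00025016546) and BTC (ENSSSCG00025016360) lie on 1 contig, LUXX01018793.1, at positions 2963940 to 2974131, 3019517 to 3040761 (both on the minus strand) and 2693407 to 2742060 (plus strand). The other ligands are HBEGF (ENSSSCG00025047977) on LUXX01073274.1 at 2217049 to 2229767, TGFA (ENSSSCG00025050458) on LUXX01074245.1 at 6186981 to 6289288, and EGF (ENSSSCG00025006928) on LUXX01010040.1 at 132427 to 227925, all on the minus strand. EGFR (ENSSSCG00025058321) lies on LUXX01031253.1 at 236309 to 415141 on the plus strand, and its symbol comes from the protein match in the gene description. The genome build behind these contigs is not given in the sources used here.

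Levels of a gene are given as log2(1 + CPM), where CPM is the count of the gene per 1000000 counts of the library, and levels are set between genes only on the length-corrected FPKM scale. Differences are log2 fold changes from edgeR's quasi-likelihood test with their standard error (SE), and a gene was called where the Benjamini-Hochberg adjusted p, over all genes tested in that comparison, was below 0.05. Libraries held 13133379 to 24895572 counts, so that 3 counts corresponded to between 0.121 and 0.228 CPM. Keratinocyte markers were checked against the labelled location: of the 12 listed markers 11 were found, and their mean level had a median of 11.4 in skin, 11.2 at the edge and 3.77 in the center. On day 3 the markers went against the label in 2 libraries, as that labelled edge replicate 6 had a mean of 2.49 and the one labelled center replicate 4 had 10.9. These were among 8 libraries that stood apart from their replicates, and 21 libraries, 15 of them from the center and 6 from the edge, held more skeletal muscle marker RNA than any day 0 skin. Where a call is lost without either set of samples, its adjusted p without them is given beside it.

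Across the 14 days EGFR, EREG, TGFA, BTC and EGF were called higher at the edge on more days than in the center. In the center these 5 genes were called below unwounded skin on 8 to 14 days. HBEGF was called on 1 day in each direction, and AREG higher in the center on 2 days and at the edge on 0. Neither was called below skin in the center. The counts that follow pool the 7 genes. Of the 98 tests of a gene on a day, 33 (33.7%) were called higher at the edge and 4 (4.08%) higher in the center, where over all genes and days 12.5% and 11% of tests were called. Against day 0, 11 of 98 tests at the edge were called above and 16 below, with 19.9% and 14.6% of the tests of all genes. The count of 16 ranged from 9 to 19 with 1 replicate left out, and was 25 by DESeq2 and 50 in fits of each state with day 0 alone. In the center 12 tests were called above (11 of them of HBEGF and 1 of EREG) and 54 (55.1%) below, with 28.2% and 27.5% of the tests of all genes. All comparisons with day 0 share the same 6 skin samples. Averaged over the 14 days, EGFR, EREG, TGFA, BTC and EGF were called higher at the edge and AREG higher in the center, where 32.5% of all genes were called higher at the edge and 33.8% higher in the center. The difference between the locations itself changed with the day for 6 of the 7 genes (all but TGFA), as it did for 30.8% of all genes. With 1 replicate left out it was called for 2 to 6 of them. A change over the days after wounding was called for 4 of the 7 at the edge and 6 of the 7 in the center, against 58.7% and 75.2% of all genes.

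**Figure D1:**
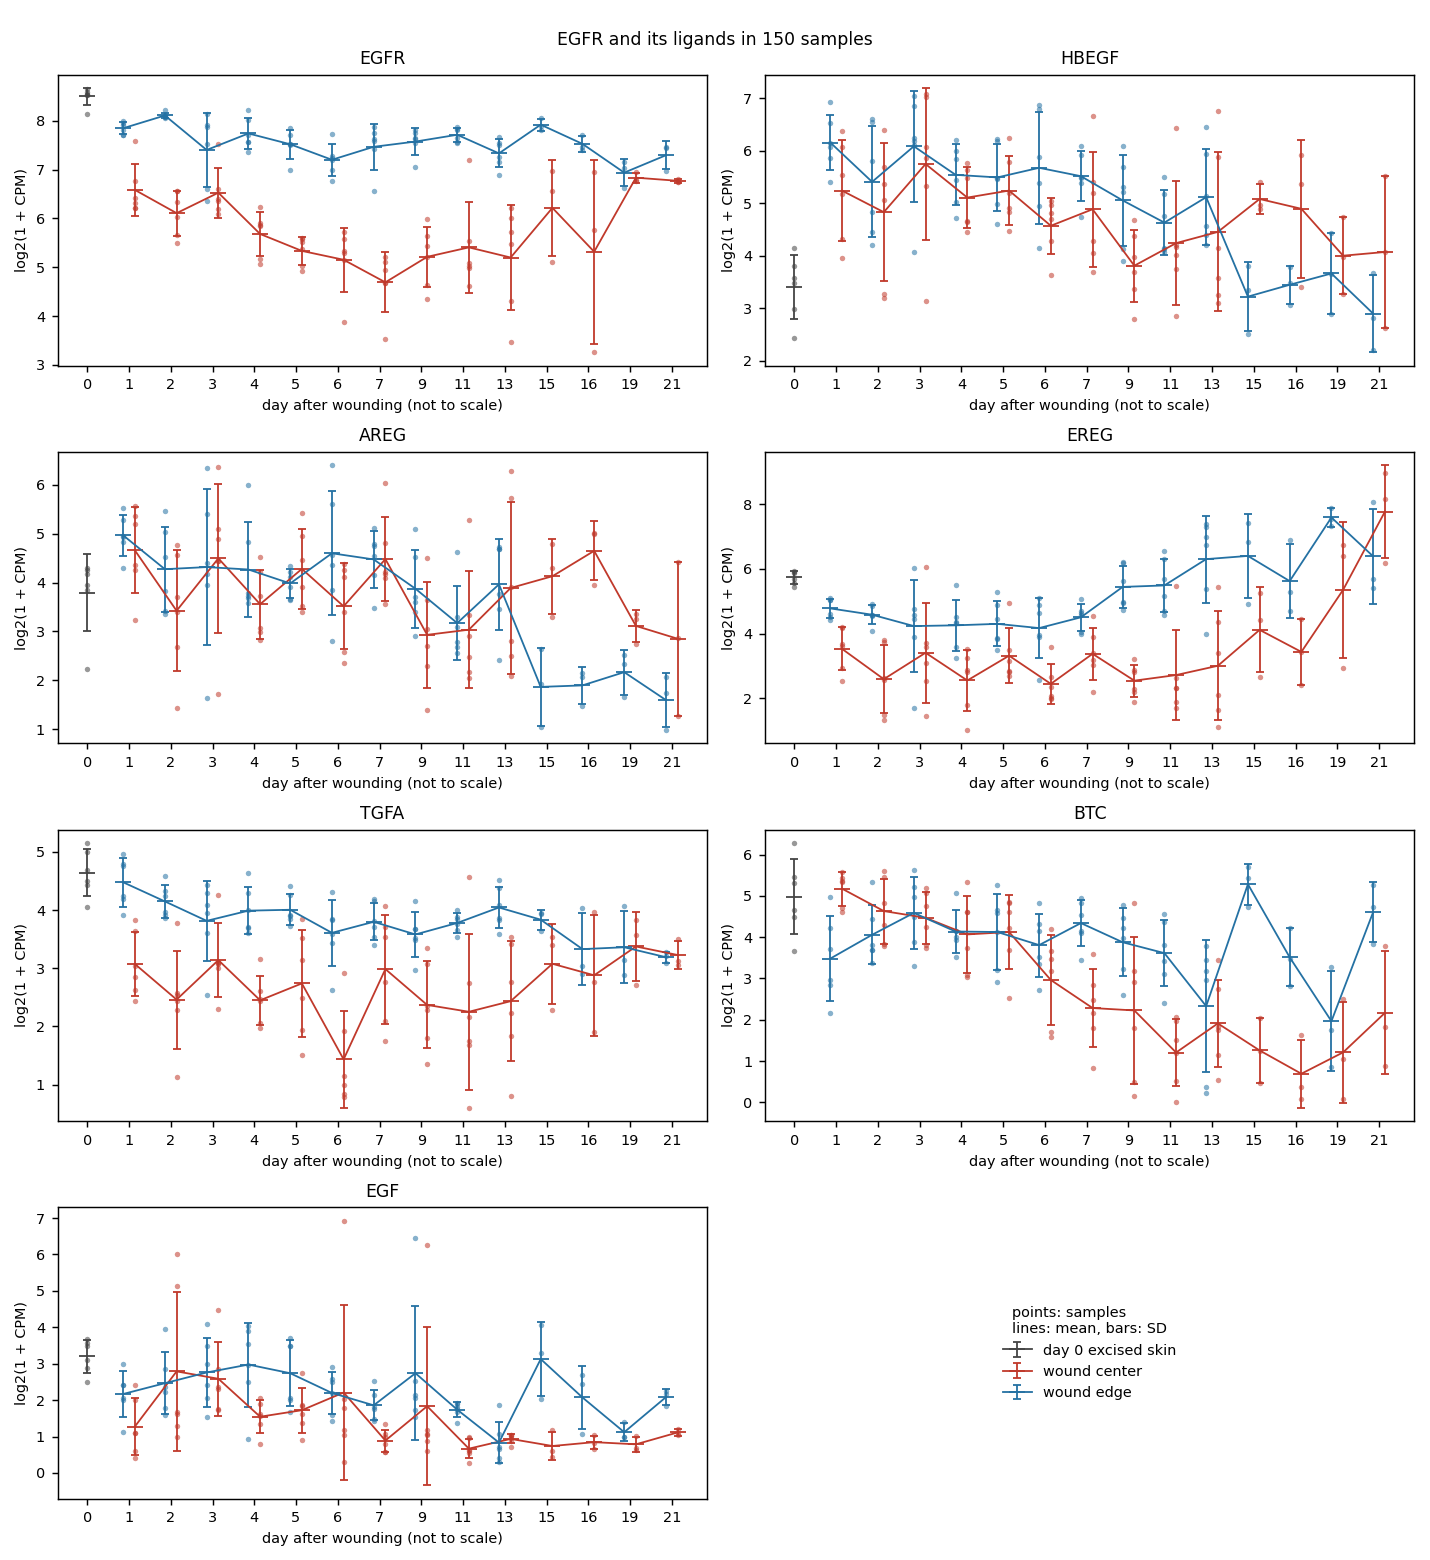
Level of the 7 genes as log2(1 + CPM), vertical, by day after wounding, horizontal; points are samples (grey day 0 skin, blue edge, red center), lines join the means and bars are the SD. The edge lies above the center over most days for EGFR, EREG and TGFA. HBEGF is called above skin on all days up to day 13 at the edge, and up to day 16 except day 9 in the center. EREG climbs late, first at the edge and by day 21 in the center (8.98, 8.15 and 6.19).

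EGFR was highest in unwounded skin, lower at the wound edge and lower still in the wound center, where it came back toward the edge in the last days. The 6 skin samples of day 0 had levels of 8.15 to 8.65 (median 8.55), a mean of 363 CPM. On day 7, when the center was lowest, its 6 samples had levels of 3.53 to 5.22 (median 4.81) and the 6 edge samples 6.57 to 7.87 (median 7.60). Every edge sample of that day lay above every center sample, and the log2 fold change of edge over center was 2.79 ± 0.29 (SE, adjusted p = 9.77e-06). EGFR was called higher at the edge on 9 of the 14 days (1, 2, 4, 5, 6, 7, 9, 11 and 13) with log2 fold changes of 1.23 to 2.79, and in the center on none, also at an unadjusted p under 0.05 and by DESeq2 (0 and 0 days). On day 3 0 of all 14581 genes tested were called, so that the missing calls of day 3 are not particular to these 7 genes. EGFR had 0.93 ± 0.35 on that day (adjusted p = 0.433). Its edge and center levels were nearly equal in replicate 4 (7.52 and 7.52) and replicate 6 (6.35 and 6.39). The samples of the locations did not overlap on 12 of the 14 days, and EGFR was higher at the edge in 69 of the 72 wounds. Averaged over the days the log2 fold change was 1.68 ± 0.098 (SE, adjusted p = 2.32e-32), 3.19-fold, and positive in all 6 animals.

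The gap in EGFR closed toward the end, and the edge-center difference changed with the day (F test, adjusted p = 0.000411). On day 16 the center samples had levels of 6.94, 3.26 and 5.76 and the edge samples 7.41, 7.71 and 7.46, without overlap, and the log2 fold change of 1.62 ± 0.81 was not called (adjusted p = 0.225). On day 19 the center samples had 6.95, 6.79 and 6.76 and the edge samples 6.63, 7.16 and 7.02. The locations overlapped on that day and the log2 fold change was 0.20 ± 0.19 (SE, adjusted p = 0.998). On day 21 the center had 6.75, 6.75 and 6.81 and the edge 7.44, 7.47 and 6.97, without overlap but also not called (0.55 ± 0.17, adjusted p = 0.406), on days when 0% (day 19) and 0.0684% (day 21) of all genes were called higher at the edge. Over the days EGFR changed in the center (F test, adjusted p = 6.37e-10), while at the edge the same test gave an adjusted p of 0.492.

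Against day 0 EGFR was lower in the center on all 14 days, by log2 fold changes from -3.74 ± 0.35 on day 7 (adjusted p = 1.11e-17) to -1.50 ± 0.41 on day 19 (adjusted p = 0.00213). At the edge it was lower on 9 of 14 days, by at most -1.31 ± 0.32 (day 6, adjusted p = 0.000273). With the animal as a block 14 center days and 6 edge days were called (days 1, 4 and 9 of the edge being lost, adjusted p = 0.0885, 0.102 and 0.081), and without the muscle-rich samples the edge call of day 9 was lost (adjusted p = 0.091). Keratinocyte markers moved with EGFR between the locations: their mean level in the center was 3.23 ± 0.86 (SD, n = 6) on day 7 and 10.7 ± 0.08 (n = 3) on day 21, against 11.0 ± 0.47 and 10.6 ± 0.40 at the edge. None of the 11 markers was called below day 0 in any edge state (0 of 154 tests, also 0 at an unadjusted p under 0.05 and 0 by DESeq2). Over all genes 14.6% of the edge tests were called below day 0, and EGFR was on 9 days. The SE of the average edge-center difference was 0.302 to 0.398 for these markers and 0.098 for EGFR. The missing calls do not show that the markers stayed level at the edge. PERP, DSC3 and TP63 lay below day 0 in every state, with highest log2 fold changes of -0.11, -0.07 and -0.03. For the other markers the highest value was above 0, from 0.17 (PKP1) to 1.78 (KRT15). Hair follicle markers were below day 0 at the edge (KRT27, KRT28, KRT71, KRT72 and TCHH in 8, 11, 5, 12 and 8 states). So were gland markers (AQP5, KRT7, KRT8 and KRT18 in 2, 11, 5 and 7). The summed CPM of the keratinocyte markers covered log2 values of 15.1 to 16.4 in skin, 6.55 to 16.7 at the edge and 3.57 to 15.6 in the center. Over the 72 center samples EGFR and the marker mean had a Pearson r of 0.565 and a Spearman rho of 0.447, and over the 72 edge samples 0.569 and 0.635, with animals shared between samples. The part of these cells in the EGFR difference was not tested, and in bulk tissue fewer cells of a type and less RNA per cell cannot be told apart.

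**Figure D2:**
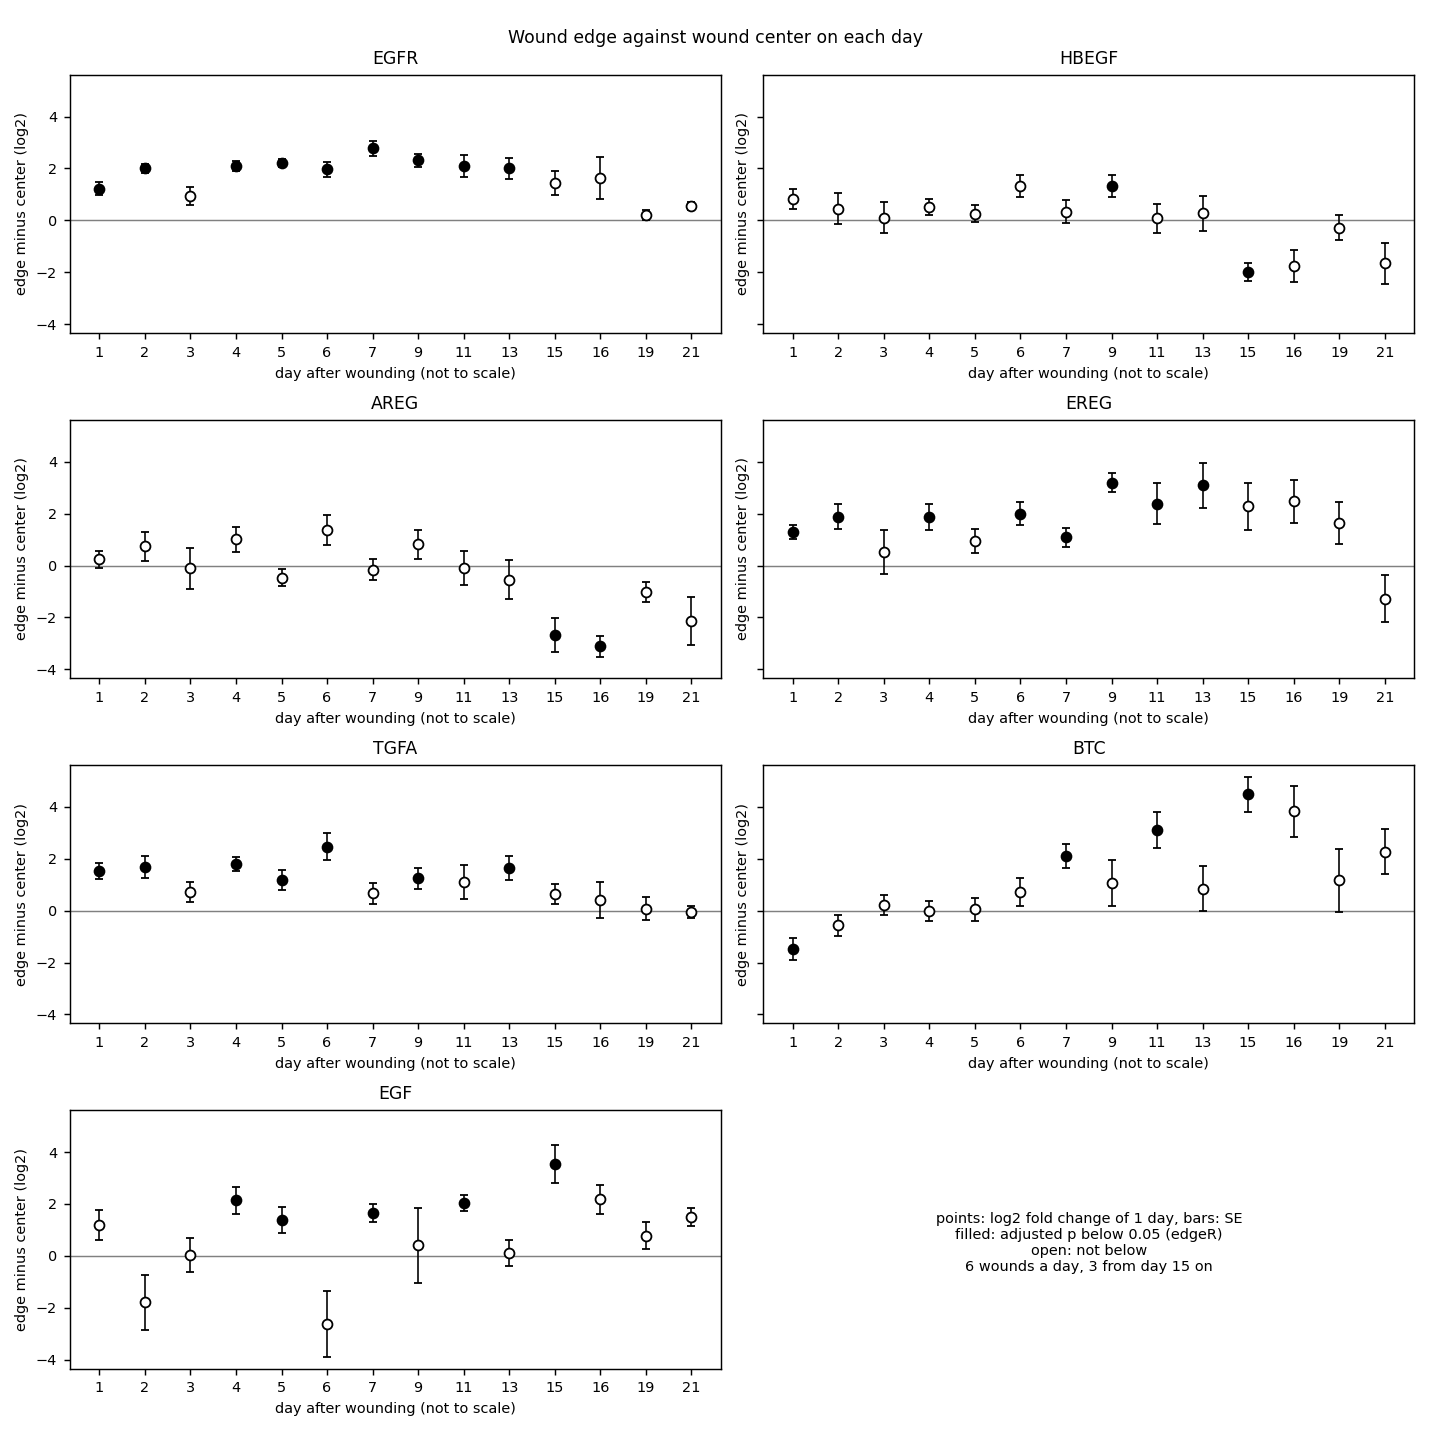
Log2 fold change of edge over center (vertical) by day after wounding (horizontal) for each of the 7 genes, with bars for the SE and filled points where the adjusted p was below 0.05. EGFR lies above 0 on every day and is called on 9, whereas HBEGF and AREG lie on both sides of 0. They are called below 0 on day 15 (both) and day 16 (AREG), and HBEGF is called above 0 on day 9.

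HBEGF, the heparin-binding ligand, rose in both locations by day 1 and was above skin on most days up to day 13 at the edge and day 16 in the center. Skin of day 0 had levels of 2.44 to 4.15 (median 3.54). On day 1 the edge samples had levels of 5.41 to 6.93 (median 6.11) and the center samples 3.96 to 6.37 (median 5.36). All 6 edge samples and 5 of 6 center samples lay above every skin sample, with log2 fold changes over day 0 of 2.71 ± 0.57 (SE, adjusted p = 4.57e-05) and 1.88 ± 0.55 (adjusted p = 0.0021). On day 3 the log2 fold change was 2.83 ± 0.57 at the edge (adjusted p = 1.87e-05), which cannot be ranked against day 1, and 2.72 ± 0.57 in the center (adjusted p = 1.98e-05). HBEGF was above day 0 on all 10 days up to day 13 at the edge, and on 11 days in the center (days 1 to 7, 11, 13, 15 and 16). With the animal as a block 8 edge and 7 center days were called, with edge days 9 and 11 and center days 2, 4, 6 and 11 lost (adjusted p of 0.0561 to 0.199). The center calls of days 1 and 6 were lost without the muscle-rich samples (adjusted p = 0.07 and 0.145), and those of days 6 and 11 without the 8 samples apart from their replicates (0.0636 and 0.503, the log2 fold change of day 11 falling from 1.39 to 0.44).

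No difference in HBEGF between edge and center was called on average, with a log2 fold change of -0.01 ± 0.16 (SE, adjusted p = 0.992) and the edge higher in 47 of 72 wounds. The difference changed with the day (adjusted p = 0.0285), but not without replicate 1, 2, 3 or 4 (adjusted p = 0.144, 0.186, 0.331 and 0.0524). On day 9 the edge samples had levels of 3.90 to 6.09 (median 5.26) and the center samples 2.80 to 4.68 (median 3.83), with the edge higher in 6 of 6 wounds and a log2 fold change of 1.33 ± 0.41 (adjusted p = 0.0271). That call was lost without replicate 2, 4 or 5 (adjusted p = 0.0763, 0.0694 and 0.0674) and without the muscle-rich samples (0.114). On day 15 the order was the opposite: the edge had 2.51, 3.81 and 3.35 and the center 4.96, 5.40 and 4.89. Every center sample of day 15 lay above every edge sample, with a log2 fold change of -2.0 ± 0.35 (adjusted p = 0.022). It was lost without replicate 2 (adjusted p = 0.159), without replicate 3 (0.105) in 1 fit of all 150 samples (0.0635) and without the muscle-rich samples (0.0757). On day 16 the edge had 3.79, 3.49 and 3.07 and the center 5.36, 3.41 and 5.92, which was not called (-1.74 ± 0.62, adjusted p = 0.115). After wounding HBEGF changed over the days at the edge (adjusted p = 9.83e-05), while in the center the test gave 0.0798. With the wound as a block HBEGF was also called higher at the edge on day 1 (adjusted p = 0.022).

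The mean of the neutrophil and macrophage markers moved with HBEGF, but the markers were split between the locations. Averaged over the days S100A8 (1.04) and S100A9 (1.08) were called higher at the edge. The others, from CXCR2 (-0.40) to CSF3R (-1.52), were called higher in the center. All 9 listed were found, and their mean level was 3.28 ± 0.11 (SD, n = 6) in skin, 6.70 ± 0.80 at the edge on day 1 and 4.22 ± 0.14 (n = 3) at the edge on day 21. On day 15, when HBEGF was higher in the center, the markers had a mean of 4.72 at the edge and 6.52 in the center. Their summed CPM covered log2 values of 7.09 to 7.87 in skin, 7.99 to 13.2 at the edge and 8.41 to 12.8 in the center. Pearson's r between HBEGF and the marker mean was 0.814 over 72 edge samples and 0.551 over 72 center samples (Spearman 0.777 and 0.517), a description over samples that share animals. HBEGF ran against the fibroblast markers (-0.583 at the edge and -0.37 in the center). The part of these cells in the HBEGF levels was not tested.

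AREG (amphiregulin) was called above skin on no day (also 0 at an unadjusted p under 0.05 and 0 by DESeq2), and was called different between the locations on days 15 and 16. Skin had levels of 2.24 to 4.30 (median 4.05), and on day 1 the edge had 4.29 to 5.51 (median 4.94), with 5 of 6 samples above all skin but a log2 fold change of 1.01 ± 0.61 that was not called (adjusted p = 0.18). On day 15 the edge samples had 1.93, 2.63 and 1.04 and the center samples 3.29, 4.79 and 4.30. On day 16 the edge had 2.16, 1.47 and 2.06 and the center 4.98, 3.95 and 5.00. The locations did not overlap on either day, and the log2 fold changes were -2.67 ± 0.65 (adjusted p = 0.041) and -3.12 ± 0.41 (adjusted p = 0.0194). The call of day 15 was lost with the wound as a block (adjusted p = 0.0507) and without any 1 of the replicates (0.0869, 0.176 and 0.139 without replicate 1, 2 and 3) or the muscle-rich samples (0.0882). The call of day 16 held with the block (0.0204) and was lost without replicate 2 (0.0957) or 3 (0.204).

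Averaged over days AREG was higher in the center by a log2 fold change of -0.44 ± 0.19 (edge minus center, adjusted p = 0.0313), yet the edge was higher in 37 of 72 wounds and in 2 of 6 animals, and with the wound as a block the value was -0.32 (adjusted p = 0.0743). The edge-center difference changed with the day (adjusted p = 0.0043; 0.0982 without replicate 2 and 0.0871 without replicate 3). AREG changed over the days at the edge (adjusted p = 4.14e-05) and in the center (0.0372, without the muscle-rich samples 0.32). On day 21 the edge samples, at 1.74, 2.06 and 0.98, lay below all skin samples, the only call of AREG against day 0 (-2.54 ± 0.87, adjusted p = 0.0259). It was lost with the animal as a block (adjusted p = 0.0705) and without replicate 1 (0.0778) or 3 (0.203). AREG followed HBEGF in its state means (Pearson r = 0.875 over 29 states), and no other gene was closer to it by this measure. Neutrophil and macrophage markers moved with AREG too, with a Pearson r of 0.697 over 72 edge samples and 0.491 over 72 center samples (Spearman 0.63 and 0.445). AREG ran against the fibroblast markers at the edge (-0.578). The part of these cells in the AREG levels was not tested.

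EREG (epiregulin), a low-affinity ligand that is made by keratinocytes among other cells, was lower in the center than at the edge through day 13 and reached its highest levels in the last days. Skin had levels of 5.45 to 5.92 (median 5.79). On day 9 the edge samples had 4.72 to 6.23 (median 5.30) and the center samples 1.89 to 3.23 (median 2.55). Every edge sample of day 9 lay above every center sample, and the log2 fold change was 3.19 ± 0.37 (SE, adjusted p = 3.51e-05). EREG was called higher at the edge on 8 days (1, 2, 4, 6, 7, 9, 11 and 13) and in 64 of 72 wounds, with an average log2 fold change of 1.67 ± 0.19 (adjusted p = 1.71e-13), 3.18-fold, positive in all 6 animals. With the wound as a block the call of day 7 was lost (adjusted p = 0.0513) and one on day 16 was gained (0.022). Without the muscle-rich samples the calls of days 4 and 7 were lost (adjusted p = 0.0581 and 0.055). The call of day 11 (0.0288) was lost with counts summed per animal (0.0605) and without replicate 2, 4, 5 or 6 (0.0614 to 0.11). That of day 4 (0.0155) was lost with counts summed per animal (0.0529) and without replicate 2 (0.07). Day 7 was lost without replicate 1, 4, 5 or 6 (0.0745 to 0.111), and day 13 without replicate 6 (0.0516). In 1 fit of all 150 samples days 1 and 7 were lost (0.0843 and 0.206). In the center EREG was below day 0 on 11 days (days 1 to 13 and day 16), most on day 6 at -3.45 ± 0.68 (adjusted p = 5.61e-06). At the edge it was below day 0 on day 6 alone (-1.45 ± 0.63, adjusted p = 0.0449), a call lost in 10 of the alternatives, among them the animal block (0.0682).

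The highest state means of EREG were those of the day 21 center (7.77) and the day 19 edge (7.59), and late levels varied widely between samples. The means of the day 19 center (5.36) and the day 21 edge (6.39) were no higher than that of the day 15 edge (6.40). On day 19 the edge samples had levels of 7.55, 7.34 and 7.89, all above every skin sample, and the center samples 6.75, 2.93 and 6.39. The edge was above day 0 by a log2 fold change of 2.14 ± 0.72 (adjusted p = 0.0165), which was lost with the animal as a block (0.0839), against the skin of the same animals only (0.0923) and without replicate 3 (0.0768). On day 21 the center samples had 8.98, 8.15 and 6.19 and the edge samples 8.07, 5.42 and 5.67. The 3 center samples lay above every skin sample, with a log2 fold change over day 0 of 2.64 ± 0.72 (adjusted p = 0.00225, with the animal as a block 0.0254), lost without replicate 1 (1.88, adjusted p = 0.0575). On that day the center was higher than the edge in 3 of 3 wounds, by a log2 fold change of -1.28 ± 0.90 that was not called (adjusted p = 0.806). EREG changed over the days at the edge (adjusted p = 1.01e-08) and in the center (adjusted p = 1.67e-19).

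The edge-center difference in EREG changed with the day (adjusted p = 0.0369), a call that was lost without replicate 2, 3 or 6, with counts summed per animal (adjusted p = 0.108), without the filter on low counts (0.0584) and without the muscle-rich samples (0.166). Keratinocyte markers in the center had a mean of 10.3 on day 19 and 10.7 on day 21. In the center the library that stood above the others on day 11 (replicate 1, EREG at 5.48 against 1.69 to 2.62 in the other 5) also had a keratinocyte mean of 9.88 against 2.72 to 4.29. Pearson's r of EREG with these markers was 0.71 over 72 center samples and 0.337 over 72 edge samples (Spearman 0.509 and 0.079), and their part in the EREG levels was not tested.

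TGFA, the ligand first known from transformed cells and made by epidermal keratinocytes, was highest in skin and lower in the center than at the edge in the first 13 days. Skin had levels of 4.05 to 5.15 (median 4.60). On day 6 the center samples had 0.80 to 2.91 (median 1.07) and the edge samples 2.62 to 4.32 (median 3.71), with the edge higher in 6 of 6 wounds. Only the highest center sample reached the range of the edge, and the log2 fold change was 2.46 ± 0.52 (SE, adjusted p = 0.00512). TGFA was called higher at the edge on 7 days (1, 2, 4, 5, 6, 9 and 13) and in 67 of 72 wounds, with an average log2 fold change of 1.08 ± 0.14 (adjusted p = 1.26e-11), 2.11-fold, positive in all 6 animals. With the wound as a block it was called on 8 days, day 11 being added (adjusted p = 0.0449, log2 fold change 1.93 against 1.10 without the block). The calls of days 5 and 9 were the least secure, with adjusted p of 0.0313 and 0.0315 that rose to 0.0696 and 0.199 with counts summed per animal, and that of day 9 to 0.242 without the muscle-rich samples and 0.0547 without the 8 samples apart from their replicates. They were also lost without replicate 3, 4, 5 or 6 (day 5) and 1, 2, 5 or 6 (day 9), as was that of day 13 (0.021) without replicate 4 or 6 (0.052 and 0.0561). On day 21 the edge had 3.08 to 3.27 and the center 3.05 to 3.50, with a log2 fold change of -0.06 ± 0.24 (adjusted p = 0.994).

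In the center TGFA was below day 0 on 12 of 14 days, with log2 fold changes from -3.57 ± 0.50 on day 6 (adjusted p = 6.68e-10) to -1.49 ± 0.59 on day 16 (adjusted p = 0.0289), the exceptions being days 19 and 21. With the animal as a block it was 11 days, day 15 being lost (adjusted p = 0.0875). At the edge it was below on day 6 (-1.10 ± 0.45, adjusted p = 0.0353), lost without the muscle-rich samples (0.0937), and with the animal as a block also on day 9 (adjusted p = 0.0446). Over the days TGFA changed in the center (adjusted p = 0.00583, without the muscle-rich samples 0.136), while at the edge the test gave an adjusted p of 0.825. The change of the edge-center difference with the day missed the threshold (adjusted p = 0.124) but passed it without replicate 4 (0.0171) and without the 8 samples apart from their replicates (0.0368). Keratinocyte markers moved with TGFA, with a Pearson r of 0.484 over 72 edge samples and 0.426 over 72 center samples (Spearman 0.55 and 0.394). Neutrophil and macrophage markers did so in the center (0.512), and the fibroblast markers ran against it at the edge (-0.6). The part of these cells in the TGFA levels was not tested.

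BTC (betacellulin) was called higher in the center than at the edge on day 1 and higher at the edge on days 7, 11 and 15. On days 2, 3, 4 and 5 the log2 fold changes of -0.57, 0.22, -0.02 and 0.06 were not called. On day 13 the edge was higher in 3 of 6 wounds. On day 1 the center samples had levels of 4.61 to 5.58 (median 5.36) and the edge samples 2.15 to 4.98 (median 3.34), and the center was higher in 6 of 6 wounds. The log2 fold change was -1.47 ± 0.44 (SE, adjusted p = 0.0158), and it was lost without replicate 3 (0.067) and in 1 fit of all 150 samples (0.0553). On day 11 the edge had 2.41 to 4.56 (median 3.62) and the center 0.00 to 2.06 (median 1.35), where the lowest sample had no count of BTC. The locations did not overlap, and the log2 fold change was 3.11 ± 0.71 (adjusted p = 0.00414). On day 15 the edge had 4.73, 5.43 and 5.69 and the center 0.48, 2.04 and 1.25, again without overlap and with a log2 fold change of 4.49 ± 0.68 (adjusted p = 0.0182), lost without replicate 2 (0.159) or 3 (0.101) and without the muscle-rich samples (0.0622).

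BTC was called higher at the edge on 3 days (7, 11 and 15), and with the wound as a block on 5, day 6 (adjusted p = 0.034) and day 16 (0.0325) being added. The average log2 fold change was 1.27 ± 0.20 (adjusted p = 1.83e-08), 2.41-fold, positive in all 6 animals although the edge was higher in only 50 of 72 wounds. The difference between locations changed with the day (adjusted p = 3.98e-05). Skin had levels of 3.66 to 6.28 (median 5.00), and in the center BTC was below day 0 on each of the 9 days from day 6, by as much as -5.31 ± 1.08 on day 16 (adjusted p = 1.79e-05), when the samples had 0.37, 0.08 and 1.63. With the animal as a block 8 of these days were called, day 6 being lost (adjusted p = 0.0582). At the edge it was below day 0 on days 1, 13 and 19. The change over days was called in the center (adjusted p = 1.24e-10) and gave 0.103 at the edge.

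Adipocyte markers moved with BTC over the samples of each location and between the locations on days 1, 11 and 15, but not in the average difference. Of 4 listed, 3 were found, and their mean level was 9.89 in the center and 4.39 at the edge on day 1, 3.43 and 5.59 on day 11, and 4.03 and 7.58 on day 15. Their summed CPM covered log2 values of 6.13 to 10.3 in skin, 0.797 to 12.9 at the edge and 0.478 to 13.6 in the center. Over 72 center samples Pearson's r of BTC with the marker mean was 0.919 (Spearman 0.932) and over 72 edge samples 0.665 (0.606). Averaged over the days none of the 3 markers was called different between the locations, where BTC had 1.27. ADIPOQ had -0.26 (adjusted p = 0.501), PLIN1 -0.22 (0.604) and LEP 0.38 (0.322). In the center ADIPOQ and PLIN1 were called below day 0 in 0 states and LEP in 3, where BTC was in 9. The part of fat tissue in the biopsies in these BTC values was not tested.

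EGF, which gave the receptor its name and is better known from glands and kidney than from epidermis, had the lowest mean FPKM of the 7 genes in skin and was lower in the center than at the edge. Skin had levels of 2.50 to 3.69 (median 3.29), a mean of 8.59 CPM. On day 11 the edge had 1.37 to 1.92 (median 1.78) and the center 0.28 to 0.98 (median 0.62). Each edge sample of day 11 lay above each center sample, and the log2 fold change was 2.03 ± 0.30 (SE, adjusted p = 0.000288). On day 15 the edge had 2.03, 4.05 and 3.30 and the center 0.61, 1.18 and 0.43, with a log2 fold change of 3.55 ± 0.74 (adjusted p = 0.0293), lost without any 1 of the 3 replicates (0.0549, 0.16 and 0.143) and without the muscle-rich samples (0.0835). EGF was called higher at the edge on 5 days (4, 5, 7, 11 and 15), and on 8 with the wound as a block, days 1, 9 and 16 being added (adjusted p = 0.0204, 0.0161 and 0.0481). The call of day 5 (0.0442) was lost in 1 fit of all 150 samples (0.211), without the filter on low counts (0.0504) and without replicate 1, 2, 4 or 5 (0.0607 to 0.148). In the fit of all samples those of days 7 (0.164), 11 (0.0649) and 15 (0.051) were lost too. The edge was higher in 61 of 72 wounds and in 5 of 6 animals, with an average log2 fold change of 0.89 ± 0.26 (adjusted p = 0.0015).

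The highest EGF levels came from samples rich in skeletal muscle markers. They were 6.93 in day 6 center replicate 5, 6.44 in day 9 edge replicate 5, 6.25 in day 9 center replicate 5 and 6.01 in day 2 center replicate 2, where the mean of the muscle markers lay between 11.3 and 12.1. Of 7 listed muscle markers 6 were found, and their summed CPM covered log2 values of 2.71 to 4.16 in skin, 0.399 to 15.1 at the edge and 0.234 to 15.9 in the center. Pearson's r of EGF with the marker mean was 0.87 over 72 center samples and 0.488 over 72 edge samples, with lower Spearman values (0.528 and 0.257). At the edge EGF was closer to the gland markers (r = 0.571, rho = 0.602, 4 of 5 found) and the hair follicle markers (r = 0.521, rho = 0.633, 5 of 6 found), and in the center the adipocyte markers had a rho of 0.56. The part of these cells and tissues in the EGF levels was not tested. Without the 21 samples rich in these markers the average edge-center log2 fold change of EGF was 1.71 (adjusted p = 5.19e-17), and its change with the day, called in all samples (adjusted p = 0.00488), was not (0.26), nor was it with the wound as a block (0.228). On days 2 and 6 the fitted log2 fold changes were -1.80 ± 1.07 and -2.63 ± 1.26, neither called, and with the wound as a block they were 0.05 and 0.56 (adjusted p = 0.978 and 0.736), the edge being higher in 4 and 5 of 6 wounds. Against day 0 EGF was lower in the center on 8 days (9 with the animal as a block, day 5 being added at an adjusted p of 0.04997) and at the edge on day 13 (-3.04 ± 0.90, adjusted p = 0.00393), and it changed over the days in both locations (adjusted p = 0.00183 at the edge and 3.59e-12 in the center).

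**Figure D3:**
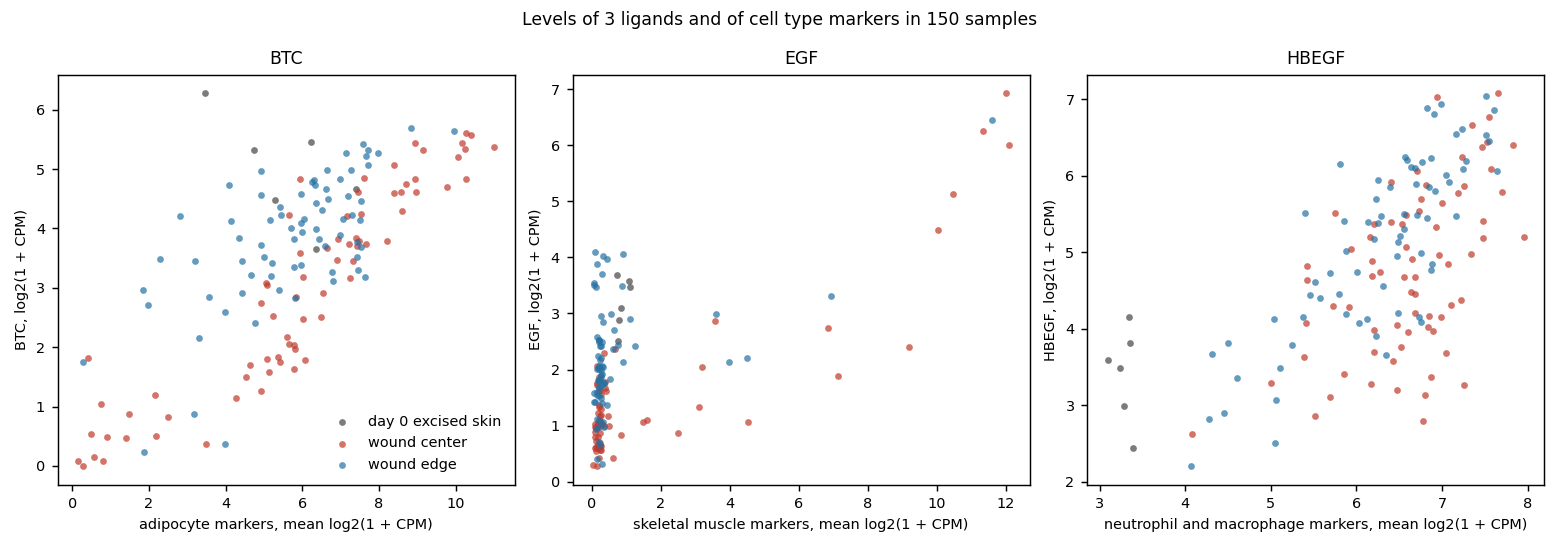
Level of BTC against the mean of the adipocyte markers, EGF against that of the skeletal muscle markers and HBEGF against that of the neutrophil and macrophage markers, all as log2(1 + CPM), in the 150 samples (grey skin, blue edge, red center). BTC follows the adipocyte markers most closely in the center (r = 0.919 over 72 samples), and the EGF levels above 6 are all in samples with muscle marker means above 11.

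On the length-corrected scale the makeup of the ligand pool changed between skin, early wound and late wound. In day 0 skin the mean FPKM was 44.1 for EGFR, 12.1 for EREG, 11.7 for TGFA, 11.5 for BTC, 4.07 for HBEGF, 3.91 for AREG and 1.37 for EGF. HBEGF thus made up 8.94% ± 3.25 (SD, n = 6) of the ligand FPKM in skin, and 48.0% ± 7.36 (n = 6) at the edge on day 1, where its mean was 25.1 FPKM. EREG made up 27.3% in skin, 78.2% ± 9.48 (n = 3) at the edge on day 19 (52.7 FPKM) and 75.2% ± 12.2 (n = 3) in the center on day 21 (73.8 FPKM). The ligand with the highest FPKM was HBEGF in 54 of 72 center samples and 43 of 72 edge samples, EREG in 21 edge and 5 center samples and BTC in 6 edge and 8 center samples. TGFA led in 2 edge samples, and each of BTC, EREG and TGFA in 2 of the 6 skin samples. AREG led in 3 center samples and EGF in 2, and neither led at the edge or in skin. The summed ligand FPKM was 44.7 ± 5.93 (n = 6) in skin, 16.7 ± 9.38 (n = 6) in the center on day 9 and 92.9 ± 70.4 (n = 3, 28.3 to 168) in the center on day 21, where the lowest sample lay below the lowest skin sample (34.7). The factor behind FPKM differs between samples, so that FPKM values and sums of different states are not on 1 scale. Shares within a sample do not depend on that factor.

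**Figure D4:**
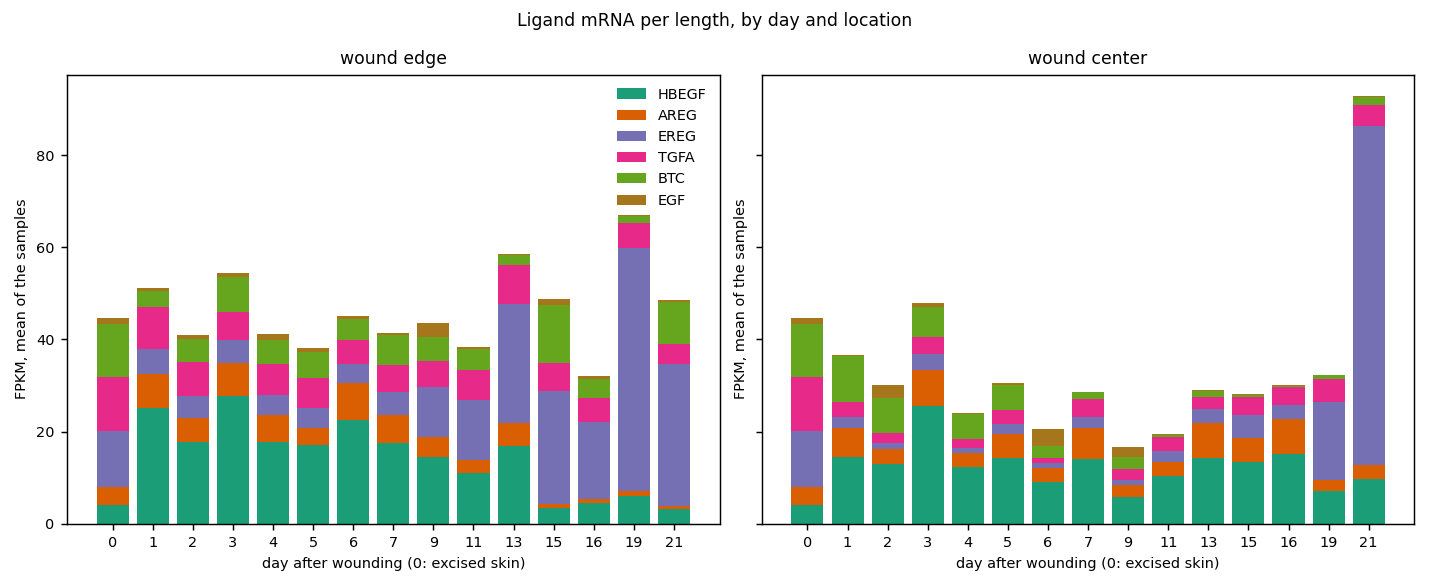
Mean FPKM of the 6 ligands stacked by day after wounding, in the edge (left) and the center (right), with day 0 skin first. HBEGF takes the greatest share in the early wound (48.0% at the edge on day 1) and EREG in the latest days (78.2% at the edge on day 19, 75.2% in the center on day 21).

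Ordered by their state means, neighbouring states lie close by construction, and most did not differ beyond their SD. That held for 28 of 28 neighbouring pairs for HBEGF, AREG, EREG, TGFA and BTC, for 27 for EGF and for 26 for EGFR, whose exceptions were skin over the edge on day 2 and that edge over the edge on day 15. These counts bear only on the rank of neighbours. The state means of BTC, for example, ran from 0.693 to 5.28. Among the 7 genes the state means of EGFR were closest to those of TGFA (Pearson r = 0.881 over 29 states), those of HBEGF to AREG (0.875) and those of BTC to EGF (0.804), while EREG ran against HBEGF (-0.416) and AREG (-0.477). Over 15831 genes with a symbol, the 3 most like EGFR were OCLN (0.982), PCSK6 (0.98) and NDRG2 (0.978), and those most like HBEGF were NRG1 (0.896), PITPNB (0.895) and FOSL1 (0.89). For EREG they were EPN3 (0.942), TTPAL (0.941) and AQP5 (0.934), for TGFA SGMS1 (0.932), RCAN3 (0.918) and LSR (0.915), for BTC F3 (0.946), FBLN1 (0.935) and PGM5 (0.933), and for EGF VIT (0.878), VLDLR (0.868) and SBSPON (0.866). After HBEGF, AREG was nearest to CAP1 (0.814) and LTB4R (0.792). These values rest on states that share animals and are given as a description.

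The other receptors of the family were higher at the edge on average, as EGFR was. Averaged over the days all 3 tested were called higher at the edge, with a median log2 fold change of 1.99 where the median over all genes was -0.01. ERBB3, which has almost no kinase activity of its own and signals through its partners, had 2.86 ± 0.14 (SE, adjusted p = 1.73e-37), ERBB2, the partner without a known ligand, 1.99 ± 0.11 (adjusted p = 1.66e-35), and ERBB4 1.89 ± 0.29 (adjusted p = 4.48e-09). By single days ERBB3 was called higher at the edge on 9, ERBB2 on 10 and ERBB4 on 0. The ERBB4 symbol matched 2 genes, and the 1 with the larger total count was used. Of the other ligands of the family 3 of 5 could be tested, and the neuregulins NRG2 (2.06 ± 0.17, adjusted p = 9.05e-22) and NRG4 (0.76, adjusted p = 1.27e-10) were higher at the edge. NRG1, the neuregulin whose state means were the most like HBEGF, had an average of 0.13 (adjusted p = 0.448) and was above day 0 in 9 edge and 9 center states.

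The shedding, signalling and feedback genes moved in both directions or toward the center. Of 7 genes for the shedding of ligands 2 were called higher at the edge and 5 in the center (median log2 fold change -0.31), with ADAM12 at -0.90 (adjusted p = 6.22e-14), ADAM9 at -0.78 (adjusted p = 1.89e-28) and ADAM15 at 0.41 (adjusted p = 9.33e-16). Of 14 signal carriers 6 were higher at the edge and 5 in the center (median -0.03), among them the GTPase HRAS (0.73, adjusted p = 6.45e-24) and the adaptors SHC1 (-0.53, adjusted p = 4.28e-24) and GRB2 (-0.48, adjusted p = 1.91e-16). Of the 11 feedback inhibitors none was called higher at the edge (also 0 at an unadjusted p under 0.05 and 0 by DESeq2) and 6 were higher in the center (median -0.23). These included SPRY4, which restrains RAS signalling (-0.75, adjusted p = 4.71e-15), ERRFI1, which binds and inhibits the EGFR kinase (-0.71, adjusted p = 1.01e-08), and the ERK phosphatase DUSP6 (-0.69, adjusted p = 3.00e-15). Of the 7 ERK response genes that could be tested 2 were higher at the edge and 2 in the center (median -0.14), with FOS at -0.70 (adjusted p = 0.000182), EGR1 at -0.49 (adjusted p = 0.00095) and ETV4 at 0.39 (adjusted p = 4.48e-05). The counts are to be read against the 32.5% and 33.8% of all genes called in each direction.

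**Figure D5:**
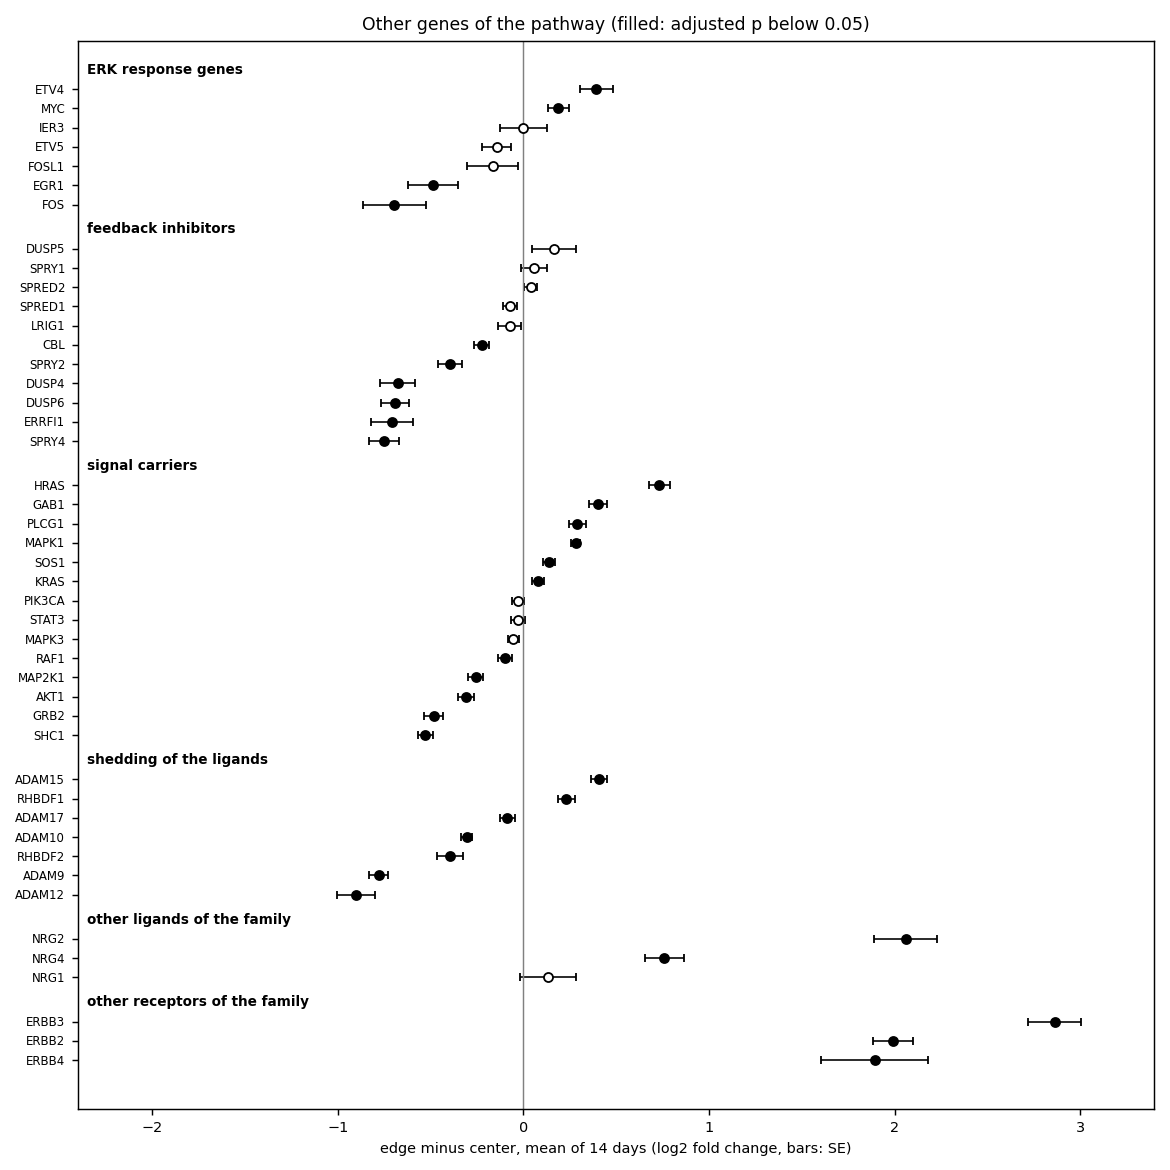
Log2 fold change of edge over center averaged over the 14 days (horizontal, bars are the SE) for the other genes of the pathway, grouped by role. The 3 other receptors stand at 1.89 to 2.86, while the 11 feedback inhibitors include 6 called below 0 and none called above it.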

How the data were processed

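Total RNA of pig skin and wound biopsies was sequenced after poly-A enrichment as paired reads of 150 bases. The sequencing provider filtered, aligned and counted the reads. Aligner, counting tool and genome build are not given in the sources used here. The authors deposited raw counts per gene and FPKM values. FPKM equals the count per kilobase and per 1000000 counts times a factor per sample, between 0.845 and 1.31. Here the counts went into edgeR's quasi-likelihood F test (edgeR 4.0.16, R 4.3.3) with TMM scaling. Low genes were dropped by filterByExpr, set to 10 for the count and 15 for the total of a gene, and p-values were adjusted over all genes tested with Benjamini-Hochberg and a threshold of 0.05. Tables were made with Python 3.11.15. Edge and center were compared in each day alone. Each of 28 states was compared with day 0 in 1 fit of all 150 samples, as were the average edge-center difference, its change with the day and the change over days. The SE of a fold change is the value implied by the F statistic. The fits were also run on simulated counts, drawn independently for each sample. That simulation held no pairing of edge and center and no shared animals, so it cannot vouch for calls in this design. FPKM was used to set levels between genes and to sum the ligands in each state. As its factor differs between samples, sums of different states are not on 1 scale. With 3 samples a group in the late days, the adjusted p depends on few samples.

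The biopsies of an edge and a center with the same replicate number come from 1 wound, so that the numbers pair the samples. The deviations of paired samples from their state means had a positive correlation over genes in 68 of 72 wounds (mean 0.222, 57 above 0.1). The design fits no block, and values with the wound or animal as a block are given beside a result where the call changes. Alternatives were DESeq2 1.42.0, library totals without TMM, no filter, each replicate left out, 8 samples left out, counts summed per animal and the blocks. Leaving out the 21 samples high in skeletal muscle markers was chosen after the levels of EGF were seen.

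The 7 genes, the pathway lists and the marker lists were chosen with earlier results of these data known. Up to 3 genes of each pathway list, those with the greatest absolute average difference between locations, and the 3 genes most like each of the 7 are named. A symbol was taken from the name column or, where that was empty, from the protein match in the gene description. Other lists of markers (mast cell, T cell, endothelial) were measured and are not described.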

Additional observations from a re-analysis of the deposited data

Results flagged for a closer look

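Of 147 groups of samples of 1 gene and 1 state, 15 held a sample whose distance from the others passed Dixon's 95% value, where chance gives about 1 in 20 groups (7.35). For EGFR the sample stood low in day 0 skin (replicate 4, 8.15 as log2(1 + CPM)), in the day 6 center (replicate 4, 3.88), the day 7 center (replicate 6, 3.53), the day 7 edge (replicate 2, 6.57) and the day 9 edge (replicate 5, 7.05). EGFR stood high in the day 3 center (replicate 4, 7.52) and the day 11 center (replicate 1, 7.20), and these 2 libraries also had keratinocyte marker means of 10.9 and 9.88. HBEGF stood low in the day 3 edge (replicate 6, 4.08), the library with the lowest keratinocyte markers of the edge. AREG stood low in day 0 skin (replicate 2, 2.24) and high in the day 11 edge (replicate 5, 4.63). EREG stood high in the day 5 center (replicate 1, 4.93) and the day 11 center (replicate 1, 5.48). EGF stood high in the day 6 center (replicate 5, 6.93), the day 9 center (replicate 5, 6.25) and the day 9 edge (replicate 5, 6.44), the libraries described above for their muscle markers.

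The edge-center difference differed between days by the F test for 6 genes, with adjusted p of 0.000411 for EGFR, 0.0285 for HBEGF, 0.0043 for AREG, 0.0369 for EREG, 3.98e-05 for BTC and 0.00488 for EGF (edgeR, Benjamini-Hochberg over all genes).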

How the results depend on the processing

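No called result reversed its direction under the alternatives that were run. Uncalled values did: with the wound as a block the average of HBEGF went from -0.01 to 0.12 (between -0.08 and 0.12 over all alternatives), and the differences by day turned from -0.10 to 0.25 (day 11) and -0.54 to 0.36 (day 13) for AREG, from -0.02 to 0.13 (day 4) for BTC, and from -1.80 to 0.05 (day 2), -2.63 to 0.56 (day 6) and 0.10 to -0.26 (day 13) for EGF. Of the named calls between locations by day, recomputed over all alternatives, 438 kept their side of the threshold and 65 lost it, against day 0 1271 and 124, and of the F tests 245 kept it, 23 lost it and 5 passed it newly. Calls of these genes higher in the center fell from 4 to 2 without the muscle-rich samples and ranged from 0 to 3 with 1 replicate left out. Calls below day 0 at the edge went from 16 to 25 in DESeq2, to 25 without the 8 samples apart from their replicates, to 50 in fits of the state and day 0 alone and to 9 against the skin of the same animals, and ranged from 9 to 19 with 1 replicate left out. Calls above day 0 in the center fell from 12 to 7 against the skin of the same animals. The 6 genes whose edge-center difference changed with the day became 2 to 6 with 1 replicate left out. The average difference of AREG, -0.44, was -0.32 with the wound as a block (adjusted p = 0.0743), -0.32 without the 8 samples (0.1), -0.42 without the muscle-rich samples (0.0506) and from -0.55 to -0.31 with 1 replicate left out. The cause of these changes was not tested. With the block, 40 calls were higher at the edge and 3 in the center (33 and 4 without), and against day 0 the animal block gave 8 calls above and 12 below at the edge, and 8 and 53 in the center. The mean EGF level of the day 11 center moved from 0.67 to 0.11 with log2(0.5 + CPM), where its samples had 4 to 23 counts.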
